A study of Caenorhabditis elegans with 2 samples.

Results

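The regions described here are sites of RNA polymerase II signal inside protein-coding genes and away from the ends of those genes. They were chosen by the pooled signal and by position: from the 5000 strongest pooled regions, those kept were autosomal, lay over 250 bp from tRNA, snoRNA and snRNA genes, had their summit inside a protein-coding gene, and had that summit over 500 bp from every annotated protein-coding 5′ and 3′ end. This left 1302 gene body regions, or 26.04% of the 5000, in 835 genes. The other strong regions comprised 1311 autosomal regions at protein-coding 5′ ends (summit within 500 bp), 921 near a 3′ end only (same distance), 473 outside protein-coding genes, 319 at tRNA, snoRNA or snRNA genes, 645 on the X chromosome and 29 on the mitochondrial genome. Coordinates are those of build ce11 (assembly WBcel235).

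The signal came from ChIP-seq, in which chromatin bound to a protein is precipitated with an antibody and its DNA sequenced. The protein was AMA-1, which is the largest subunit of RNA polymerase II, and the material was whole Caenorhabditis elegans at the young adult stage, with both sexes pooled. Both samples, biological replicates 1 and 2 of 1 group, were strain YL489, which carries the unc-119(ed3) allele on chromosome III and the vrIs104 insertion. In that insertion the pie-1 promoter, which is active in the germline, drives AMA-1 with GFP and FLAG at its C-terminus, followed by the puf-5 3′UTR, and a wild-type unc-119 copy is carried along. The labels give ama-1 as the antibody's target; whether the tag or the protein itself was bound is not stated, so signal from the germline and from other tissues cannot be told apart. Chromatin was sheared by sonication. The worms' exact age is given as unknown, a possible control experiment was not used here, and there was no second condition. Peak lists hold no expression values, so the tissue could not be checked against markers.

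RNA polymerase II starts at promoters, passes through exons and introns, and terminates past the polyadenylation site. In C. elegans the 5′ ends of many primary transcripts are replaced by trans-splicing, and long introns often hold enhancers and the promoters of shorter transcripts of the same gene. A summit in a gene body can therefore mark elongating polymerase, polymerase at a start site inside the gene, or a transcript of another gene that lies within it. Which of these a region marks was not tested.

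Of 6 motifs searched near the summits, the one that stood furthest above the surrounding gene body sequence was a run of alternating G and A. The 30 bases around the match nearest the summit are shown for the 10 strongest regions with GAGAGAG among those whose sequence is shown here, to let the length of the run and its flanks be compared. They are read 5′ to 3′ from the RefSeq sequence of WBcel235 on the strand that holds the match, with the 7 matching bases in capitals.
mdt-26: tgaagccgcccGAGAGAGccgagaaggcag
W06H8.6: aattagaagagGAGAGAGaatagagaaacg
daf-5: catggaaaacgaGAGAGAGactctgaagaa
unc-62: ggaaaaattgtGAGAGAGagtgaaaaagat
hlh-30: gaagaatgagcGAGAGAGagagaggggaga
unc-119: gaaaagagaagcGAGAGAGtgtggggaacg
M01H9.3: tgtgaaagacgGAGAGAGgcgagagtaacg
atx-2: gacagaggtagaGAGAGAGacttgatgaaa
miz-1: gagagagagagaGAGAGAGatggtggagag
uba-1: ggaagaataaaGAGAGAGacgcaggcaaag

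In miz-1 the run went on upstream of the match, and in hlh-30 downstream of it. In mdt-26 the match stood between stretches rich in C and G. The match lay 25 bp from the summit in mdt-26 (chrII:5661840-5661869, plus strand), 21 bp in hlh-30 (chrIV:4020002-4020031, plus strand) and 1 bp in miz-1 (chrIV:10821957-10821986, minus strand). It lay 94 bp away in W06H8.6 (chrV:6224695-6224724, plus strand) and 97 bp away in unc-62 (chrV:4508155-4508184, plus strand). The W06H8.6 stretch lay wholly outside its called region, chrV:6224558-6224688. Of these 10 regions, that in unc-62 had its summit in a UTR exon and the others had theirs in introns. As background, mdt-26 encodes a Mediator subunit, daf-5 a Sno/Ski family protein of the TGF-β pathway, unc-62 a Meis-type homeobox protein, hlh-30 the worm TFEB, atx-2 the worm ataxin-2 and uba-1 a ubiquitin-activating enzyme.

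A second set of sequences is shown because its letters are those of an RNA polymerase III element. GTTCGANNC, the core of the internal B box of tRNA genes, was found in 35 gene body regions, although annotated tRNA genes had been kept at a distance. The 6 strongest of those shown here follow, in the same layout, with the 9 matching bases in capitals. The first 2 lines are separate regions in introns 8 and 9 of Y69A2AR.31.
Y69A2AR.31 intron 8: gaaggtcgatgGTTCGAATCcttcagtgcg
Y69A2AR.31 intron 9: atcactccctgGTTCGAACCccgctatgtg
Y57G11C.22: tagtgtcctggGTTCGAACCcgtcccctgg
sms-3: caggtcgaggGTTCGAGTCcccgggtggtt
H10E21.5: agctcttggcGTTCGAGGCattgagcacca
Y73F8A.26: ggctgccgcggGTTCGACTCacctcgccgt

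The Y69A2AR.31 matches lay at chrIV:2659015-2659044 and chrIV:2657434-2657463, both on the minus strand, which is also the strand of the gene. An annotated pseudogene, a type that the distance rule did not cover, lay within 250 bp of the intron 8 summit. The intron 8 region ranked 11616 in replicate 1 and 198 in replicate 2, and the intron 9 region 3420 and 495. The match in Y57G11C.22 (chrIV:14838322-14838351, minus strand) and that in sms-3 (chrIII:1599167-1599196, plus strand) were on the strand opposite to their gene. The matches in H10E21.5 and Y73F8A.26 were also opposite to their gene. Signal was 50.9 and 50.7 in the Y69A2AR.31 regions, 49.9 in Y57G11C.22 and 47.9 in sms-3, which encodes a sphingomyelin synthase. The H10E21.5 match lay at chrIII:21435-21464 on the plus strand, and its region was the only one of the 6 with its summit in a coding exon.

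The deposited signal, on a scale that is not given, ran to 123 at the strongest gene body region and 19.8 at the weakest, with a median of 24.1. Of the 1302 regions, 80 (6.14%) were on the authors' optimal list of reproducible peaks, against 17.7% of all 5000 strong regions. That list is the top of the pooled regions by the same signal, so the share restates the rule and nothing is read from it. The optimal share was 15.3% at 5′ ends, 17.2% at 3′ ends and 8.46% outside protein-coding genes. In gene bodies, 888 regions (68.2%) overlapped a candidate region by at least 1 bp in both replicates, against 73.2% of all 5000. Regions that overlapped one of the 5000 strongest of both replicates numbered 197 (15.1%), against 25.4% of all 5000. By both measures the overlap was below that of all strong regions, and at 66.4% for the first of them only the regions outside protein-coding genes were lower. Overlap itself went with signal, at 96.3% of gene body regions on the optimal list and 58.4% of those ranked 2501 to 5000. Gene body regions also had a lower median signal than all 5000, 24.1 against 25.7. How far the lower overlap went with the lower signal was not tested.

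The replicates seldom placed the same gene body region high. Median rank was 4720 in replicate 1, over 1053 regions found there, and 5081 in replicate 2, over 1124. Across the 888 regions found in both, Spearman's rho between the ranks was 0.01, a description across sites that share a pooled signal by which they were chosen. For 399 regions neither replicate held an overlapping region among its 5000 strongest, and 13 regions had no overlapping candidate in either replicate.

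**Figure D1:**
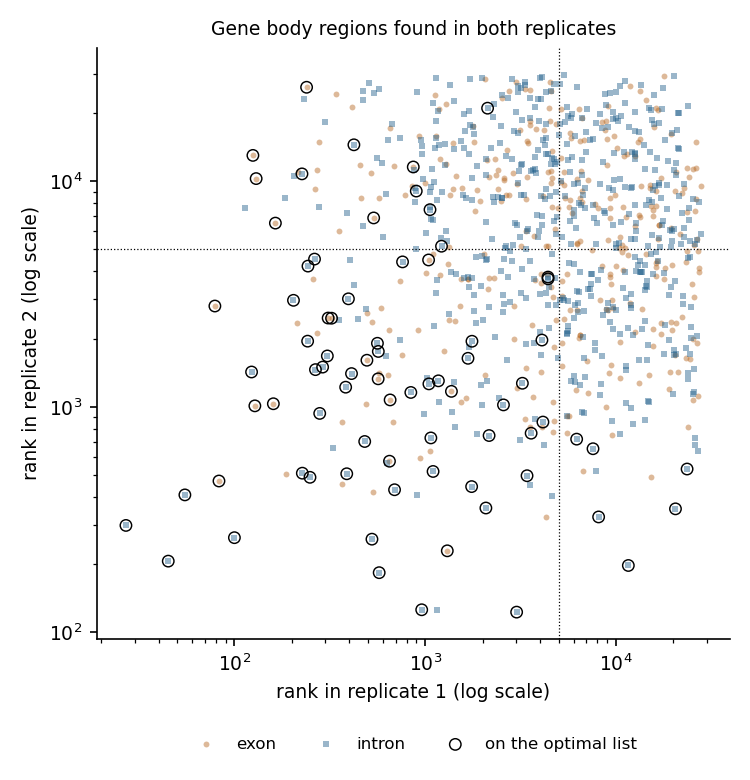
Rank in replicate 1 (x axis, log scale) against rank in replicate 2 (y axis, log scale) for the 888 gene body regions found in both. Circles are exonic, squares are intronic, open rings mark regions on the optimal list, and dotted lines stand at rank 5000. The regions fill the upper right rather than a diagonal, and rings reach down to the lower left corner.

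At the threshold of the choice the values ran on without a step. The weakest members, in phy-2, ensa-1 and pygl-1, and the strongest regions just outside, in C33D9.3, Y45F3A.9 and lin-66, all had a signal of 19.8. In replicate 1 the phy-2 region ranked 22065, and in replicate 2 no candidate overlapped it.

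In the pooled list, exons and introns held gene body regions at nearly equal density. Of the 1302 summits, 494 (37.9%, exact Clopper-Pearson 95% interval 35.3 to 40.6%) lay in an exon and 808 in an intron. The territory, meaning all autosomal bases that meet the same position rule, covered 36.1 Mb, of which exons made up 37.8%. Density was 36.1 regions per Mb of exon and 36.0 per Mb of intron. The exonic share over its share of territory was 1.00 (0.93 to 1.07), but 1.08 and 1.12 with the 5000 strongest of replicate 1 and of replicate 2, and 0.73 with the optimal list, all outside that interval. Among the 10929 weaker pooled candidates that met the position rule, 35.3% were exonic. Intervals cover counting error only, and with 1 group of 2 replicates no test over samples exists.

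Within exons the density was uneven. Coding exons held 404 regions, or 31.3 per Mb, a share 0.87 times that of their territory. UTR and other noncoding exon sequence held 90 regions, or 118 per Mb, 3.27 times its share. These exons lay inside genes, over 500 bp from any gene end, so they belonged to long UTRs or to transcripts that start or stop within the gene. In 5′UTR exons there were 24 regions (74.7 per Mb), of which 14 lay within 500 bp of a transcript 5′ end inside the gene. In 3′UTR exons there were 63 regions in 53 genes (168 per Mb), of which 21 lay within 500 bp of a transcript 3′ end inside the gene. The remaining 3 were in noncoding exons. Noncoding RNA genes lay within 250 bp of 11 of the 63 regions in 3′UTR exons.

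The strongest exonic region lay in lea-1, which encodes a late embryogenesis abundant protein known from desiccation and osmotic stress. It was in a 3′UTR exon at chrV:10023075-10023354, with a pooled signal of 64.9, and the overlapping replicate regions had signals of 16.9 in replicate 1 and 42.9 in replicate 2. Its rank was 1306 in replicate 1 and 230 in replicate 2, so it stood higher in replicate 2. W06H8.6 held 3 of the 10 strongest exonic regions, all in 3′UTR exon sequence of this chromosome V gene, with pooled signals of 61.0, 49.1 and 48.1. Those 3 were stronger in replicate 1 (43.7, 27.4 and 34.6) than in replicate 2 (16.3, 17.0 and 11.5), although the signal scales of the 2 lists need not match. An annotated ncRNA gene lay within 250 bp of each of the 3.

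Among coding exons the strongest region was in tent-5, which encodes a noncanonical poly(A) polymerase. It had a pooled signal of 58.8, with ranks of 128 in replicate 1 and 1010 in replicate 2. F26A3.4 followed at 56.6 (ranks 650 and 574 in replicates 1 and 2), the most even pair of ranks of these 10. The MADS-box transcription factor gene mef-2 had 49.4, with a rank of 130 in replicate 1 and only 10276 in replicate 2. The region in mak-1, a MAPKAP kinase gene, had 45.7 and a rank of 343 in replicate 2, and nothing overlapped it in replicate 1. F25B5.3, at 47.4, ranked 655 in replicate 1 and 1073 in replicate 2. In a 3′UTR exon of F58D5.5, with an ncRNA gene within 250 bp, the signal was 50.7, with ranks of 160 in replicate 1 and 1032 in replicate 2. In all, 7 of the 10 strongest exonic regions were among the 5000 strongest of both replicates.

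First introns held more regions per Mb than later introns. Of the 808 intronic summits, 187 (23.1%, interval 20.3 to 26.2%) were in a first intron, against 18.4% of the intronic territory. Introns were numbered in the representative transcript or, where it had no intron at the summit, in the longest transcript that did. Density was 45.2 per Mb in first introns and 33.9 per Mb in later introns. The first-intron share was 34.5% (20 of 58) among regions on the optimal list and 19.6% among weaker candidates, a description by signal with no test. First-intron regions lay in longer introns, with a median length of 3635 bp against 964 bp.

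The strongest intronic regions were found in both replicates. The region in intron 2 of mdt-26, at chrII:5661697-5661948, had the highest signal of all gene body regions, 123, with 80.6 (rank 27) in replicate 1 and 38.9 (rank 298) in replicate 2. Intron 5 of ints-8, which encodes a subunit of the Integrator complex that cleaves nascent RNAs, held the next at 85.4, with ranks of 45 in replicate 1 and 207 in replicate 2. An ncRNA gene lay within 250 bp of the ints-8 summit, which is given 1 bp beyond the region's own end. In T26A8.4 the first-intron region at chrIV:8431759-8431860 had 76.1, with ranks of 55 in replicate 1 and 407 in replicate 2. Intron 5 of W06H8.6 had 74.2, with ranks of 100 in replicate 1 and 263 in replicate 2. These 4 were also the only gene body regions narrower than the usual width of 280 bp, at 252, 70, 102 and 131 bp.

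The other strong intronic regions lay in scc-2, hif-1, zip-7, srt-52 and tent-5. In scc-2, which encodes the cohesin loader, a first-intron region (chrII:255196-255475) had 60.2, with ranks of 227 in replicate 1 and 508 in replicate 2. It sat 8327 bp from the 5′ end of the gene, in an intron of 8369 bp, and near the start of another transcript. The gene for the hypoxia-inducible factor hif-1 had 57.3 in intron 4, with ranks of 123 in replicate 1 and 1427 in replicate 2. For zip-7, a bZIP transcription factor gene, the value was 64.7 in intron 3, with ranks of 574 in replicate 1 and 184 in replicate 2. The chemoreceptor-family gene srt-52 had 56.5, with ranks of 3016 in replicate 1 and 123 in replicate 2. In tent-5, intron 2 had 65.2, with ranks of 2081 in replicate 1 and 356 in replicate 2, and the first intron had 56.3, with ranks of 388 and 505 in replicates 1 and 2. All 10 of the strongest intronic regions were among the 5000 strongest of both replicates, which the choice by pooled signal favours.

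Transcripts that start inside a gene marked places of higher density. Within 500 bp of an annotated transcript 5′ end that is itself over 500 bp from the gene's own 5′ end lay 218 regions (16.7%, interval 14.8 to 18.9%), against 8.72% of the territory and 11.6% of weaker candidates. Density there was 69.2 per Mb, against 32.9 per Mb elsewhere. The largest difference was in first introns, with 99.6 per Mb near such starts and 36.6 farther away. For later introns the values were 63.7 near and 31.4 farther away, and for exons 61.3 near and 33.9 farther away. In steps of 250 bp around these starts, density was highest just upstream, at 92.9 per Mb within 250 bp, against 55.3 per Mb in the 250 bp just downstream. It stayed above the 36.0 per Mb of all territory out to 2 kb: the steps from 500 to 2000 bp downstream had 52.8 to 66.7 per Mb, and those from 500 to 2000 bp upstream 37.7 to 59.6. The higher density was therefore not limited to the 500 bp around the starts. Such a start lay within 500 bp of 3 of the 10 strongest exonic and 6 of the 10 strongest intronic regions.

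**Figure D2:**
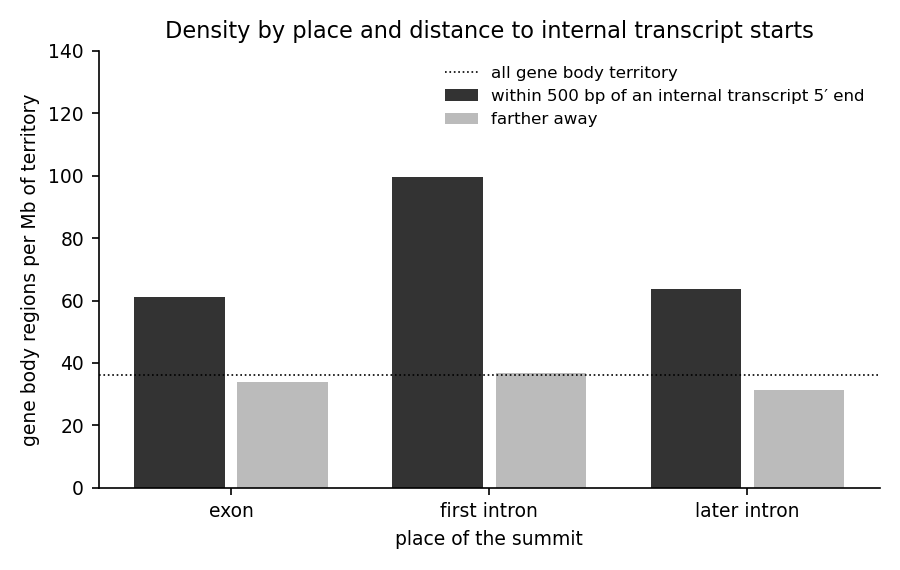
Gene body regions per Mb of territory (y axis) for summits in exons, first introns and later introns, near and far from a transcript 5′ end inside the gene. The dotted line is the density over all territory, 36.0 per Mb; the dark bars lie above it in all 3 places, and the first-intron bar is tallest at 99.6.

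Away from every internal transcript end the places differed less. Leaving out summits within 500 bp of an internal transcript 5′ or 3′ end kept 1040 regions. Their density was 32.0 per Mb in exons and 32.2 in introns. It was 36.7 per Mb in first introns and 31.2 in later introns, where the first-intron share of 20.2% had an interval of 17.1 to 23.4% around a territory share of 17.7%. That interval holds the territory share. Internal transcript 3′ ends had 51 regions within 500 bp (3.92%), against 1.79% of the territory.

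Distance from the gene's 5′ end separated first from later introns. At 500 to 1000 bp the density was 34.0 per Mb in first introns and 37.4 in later introns, with overlapping intervals. From 4 to 8 kb it was 68.4 per Mb in first introns (interval 50.1 to 89.8) and 27.6 in later introns (23.2 to 32.4). Beyond 8 kb it was 78.6 per Mb in first introns (50.8 to 114) and 44.9 in later introns (39.7 to 50.4). Such distances do not always mean a long first intron, because the transcript used for the numbering can start inside the gene. In tent-5, a first-intron region 7777 bp from the gene's 5′ end lay in an intron of 961 bp. Introns of 5 kb or more had 58.9 regions per Mb when first and 46.7 when later. Introns of 500 to 1000 bp had 29.7 when first and 33.4 when later, and those of 100 to 500 bp had 23.3 and 36.6. From 1000 to 2000 bp of intron length the values were 44.1 when first and 26.4 when later, and from 2000 to 5000 bp 43.0 and 36.1. In exons the density varied between 29.3 and 51.0 per Mb over the same distances.

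**Figure D3:**
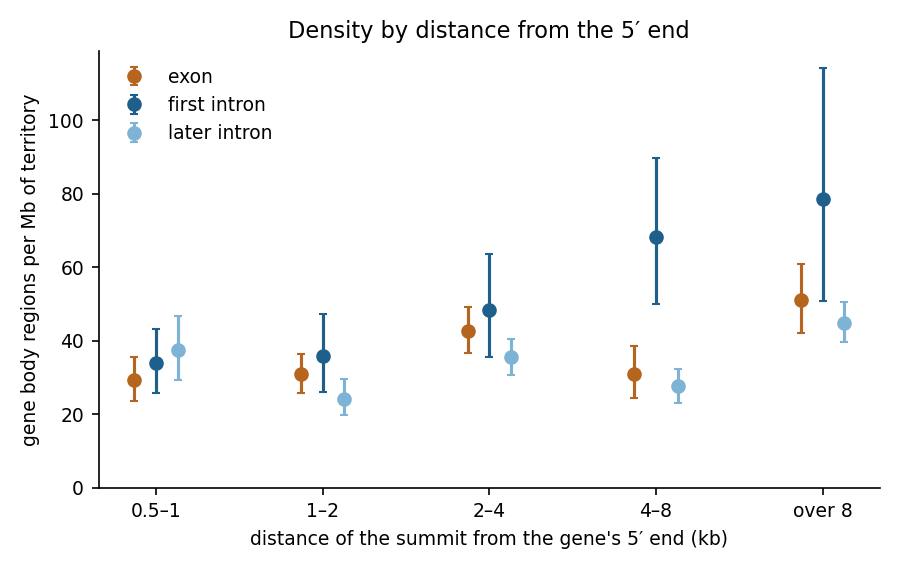
Gene body regions per Mb of territory (y axis) by distance of the summit from the 5′ end of the gene (x axis, kb), for exons, first introns and later introns, with 95% intervals that cover counting error only. First introns stand at 34.0 in the nearest bin and 78.6 in the farthest.

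Along the gene, the last part was densest. With each gene divided into 5 equal parts from 5′ to 3′, density was 33.6, 36.1, 31.6, 35.0 and 50.4 regions per Mb of territory. The part next to the 3′ end was above the others, although every summit lay over 500 bp from the annotated 3′ end.

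Genes that held a gene body region were long. Their median length was 5375 bp (exact interval 5004 to 5765 bp, 835 genes), against 2368 bp for the 13922 autosomal protein-coding genes that hold any territory. Longer genes also offer more territory. Weighted by territory, the median length was 6524 bp, beside 7258 bp when each gene body region was counted rather than each gene. The 3470 genes with weaker candidates only had a median of 3957 bp. Genes with an exonic region had a median of 4637 bp, and genes with an intronic region 7153 bp. Within the intronic genes the median was 8582 bp for first-intron and 7233 bp for later-intron regions.

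The share of genes with a region rose with length, as did, more gently, the density. Of genes under 2 kb, 58 of 5484 (1.06%) held a region. The share was 4.87% from 2 to 4 kb, 10.6% from 4 to 8 kb, 19.98% from 8 to 16 kb and 34.1% (101 of 296) at 16 kb or more. Density over the same 5 classes was 23.1, 32.9, 35.6, 38.5 and 42.8 regions per Mb. Exonic density was 22.5 per Mb under 2 kb and changed little above 2 kb, from 36.7 to 40.7 per Mb. In first introns it was 19.0 per Mb under 2 kb, over only 5 regions. There it was 56.2 from 8 to 16 kb and 50.5 at 16 kb or more.

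**Figure D4:**
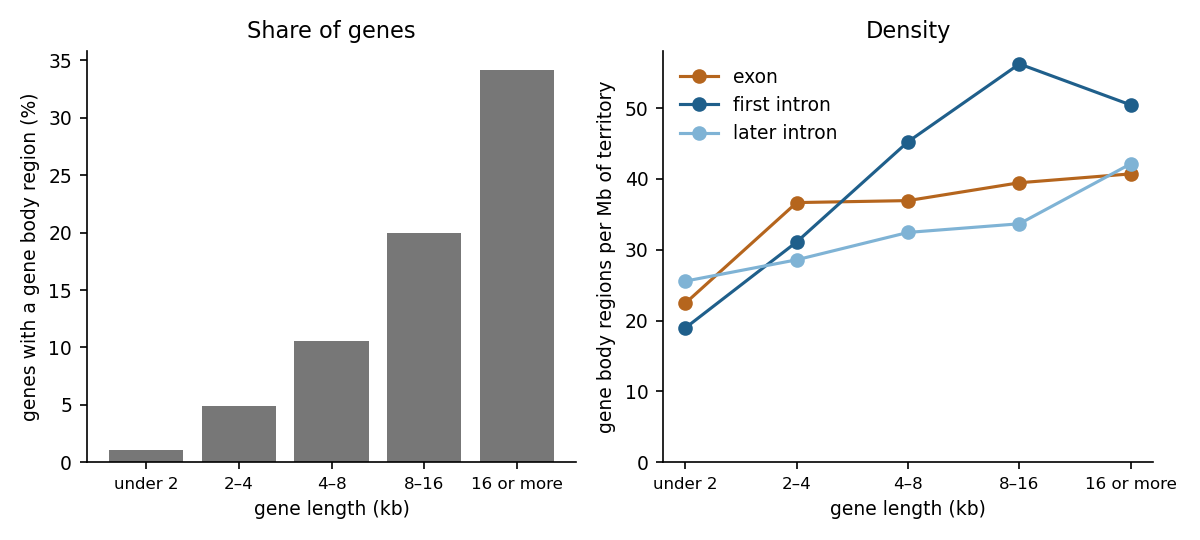
Left, share of genes with a gene body region (y axis, %) by gene length (x axis, kb); right, gene body regions per Mb of territory (y axis) by gene length for exons, first introns and later introns. The share is 1.06% in the shortest class and 34.1% in the longest, while the density lines stay between 19.0 and 56.2.

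A few genes carried many regions. One region was found in 615 genes, and 52 genes with 4 or more held 292 regions, 22.4% of all; their median length was 16990 bp. The most were in mnk-1, the worm gene for a MAP kinase-interacting kinase, with 14 regions over 12624 bp (chrII:10542421-10555044). Of these, 8 were exonic, 4 of them in coding exons and 4 in 3′UTR exons, 5 were in intron 2 and 1 in the first intron. Signals in mnk-1 ran from 21.8 to 39.4, and 12 of the 14 regions were found in both replicates. Its highest, in intron 2, had ranks of 226 in replicate 1 and 10782 in replicate 2, and its next, in a coding exon, was found in replicate 2 only, at rank 441. A pair of its 3′UTR regions overlapped the same replicate 1 region, so neighbouring regions are not independent.

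The gene ncl-1, whose TRIM-NHL protein limits nucleolar size, had 11 regions over 18377 bp: 5 exonic, 2 in the first intron and 4 in later introns. In ppfr-1, which encodes a regulatory subunit of protein phosphatase 4, all 10 regions were in later introns, 8 of them in intron 7, which is 10404 bp long. The ppfr-1 signals ran from 20.5 to 44.3, and 8 of the 10 were found in both replicates. In tent-5 all 8 regions were found in both replicates, and 6 lay near a transcript start inside the gene. The MAP kinase phosphatase gene vhp-1 also had 8 in both, 4 of them in intron 4. Tied with these at 8 regions were par-1, a polarity kinase gene, and mca-3, a plasma membrane calcium pump gene, each with 6 in both replicates. Close spacing was common: 275 regions (21.1%) had another gene body summit within 1000 bp. Exonic and intronic regions shared genes, with 117 genes holding both, 29.0% of the 404 genes with an exonic region and 21.4% of the 548 with an intronic one.

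The genes on the transgene were looked at separately, because the strain holds extra copies of some of their sequence. In intron 3 of pie-1, which encodes a CCCH zinc-finger protein of germline precursors, 2 regions had signals of 48.2 and 26.2. Their ranks were 959 and 1154 in replicate 1, and in replicate 2 both overlapped 1 region of rank 126. The first intron of unc-119, a lipid-binding chaperone gene needed in neurons, had 3 regions with signals of 39.5, 31.6 and 21.9. Those ranked 263, 3524 and 3388 in replicate 1 and 4518, 450 and 1906 in replicate 2. No gene body region lay in ama-1 or puf-5. How much of the signal at pie-1 and unc-119 came from the transgene was not tested.

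Gene groups are described by how densely they carried regions, beside 36.0 regions per Mb and 5.998% of genes over all genes that hold territory. The gene lists were chosen with earlier results of these data known. Values above those of all genes are therefore a description of the lists and no finding about the groups. Only listed genes that hold territory were counted. Median gene length differed between the groups, with 2233 bp for translation and ribosome genes and 11667 bp for extracellular matrix genes, so that shares of genes are not comparable between them. Genes of transporters and metabolism had 39 regions in 18 of 57 genes (31.6%), or 157 per Mb. Here pck-1, which encodes the gluconeogenic enzyme PEP carboxykinase, had a coding-exon region of signal 45.5, ranked 1042 in replicate 1 and 4478 in replicate 2. The glyoxylate-cycle gene icl-1 had 35.1, with ranks of 2063 and 1380 in replicates 1 and 2. In unc-32, which encodes a subunit of the V-ATPase, intron 6 had 31.8, and a noncoding RNA gene lay within 250 bp.

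Germline and oogenesis genes had 22 regions in 15 of 71 genes (21.1%), or 118 per Mb, 17 of them exonic and 2 in pie-1, a gene with sequence on the transgene. After pie-1 the strongest were in introns of larp-1, an RNA-binding protein gene, at 31.8, and of cbd-1, which encodes an eggshell chitin-binding protein, at 31.6. Neuronal and ion channel genes had 35 regions in 16 of 47 genes (34.0%), or 79.9 per Mb. In that group egl-8, a phospholipase C-β gene, had 41.6 in intron 6, where repeat-masked bases made up 87.1% of the window. A 5′UTR exon of egl-30, which encodes Gq alpha, had 33.1, with ranks of 497 in replicate 1 and 2608 in replicate 2, and egl-3, a proprotein convertase gene, had 27.8 in a coding exon.

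Translation and ribosome genes had 7 regions in 7 of 41 genes, or 66.2 per Mb, with ifg-1, the eIF4G gene, at 31.9, gcn-1 at 31.8 and the ribosomal protein gene rpl-3 at 26.7. Spectrin and giant cytoskeletal genes had 19 regions in 8 of 25 genes, or 50.8 per Mb. Of the 19, 3 were the regions of unc-119, a gene on the transgene and the strongest here at 39.5, followed by unc-73, which encodes a Trio-type exchange factor, at 36.0 and the cadherin gene hmr-1 at 35.2. Chromatin and transcription genes had 18 regions in 11 of 69 genes, or 44.4 per Mb. Their strongest were in nurf-1, a nucleosome remodelling factor gene, at 38.5, epc-1, the enhancer of polycomb homolog, at 34.8 and cbp-1, the CBP/p300 gene, at 33.1. Splicing and RNA-binding genes had 11 regions in 10 of 52 genes, or 41.7 per Mb, with asd-1 at 36.9, the SR protein gene rsp-3 at 36.5 and uaf-1, the large subunit of U2AF, at 26.0.

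The 2 lowest densities were those of matrix and sarcomere genes. Extracellular matrix and basement membrane genes had 9 regions in 5 of 23 genes, or 31.1 per Mb, with unc-40, the netrin receptor gene, at 35.7, the peroxidasin gene pxn-1 at 35.3 and the LAR-type receptor phosphatase gene ptp-3 at 28.9. Sarcomere and attachment genes had 5 regions in 5 of 30 genes, or 15.6 per Mb. These were led by unc-60, the cofilin gene, at 31.2, lev-11, the tropomyosin gene, at 28.8 and pat-2, an alpha integrin gene, at 24.5. In lev-11 the replicates stood far apart, with ranks of 231 in replicate 1 and 23049 in replicate 2. No test was made between the groups, and regions of 1 gene are not independent.

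Summits were somewhat richer in GC than the surrounding territory and, in introns, poorer in repeats. Median GC content within 100 bp of the summit on either side was 38.3% for gene body regions, against 36.3% in windows of the same length placed every 100 bp over the territory. For exons it was 41.3% at summits and 39.8% in windows, for first introns 37.3% and 33.3%, and for later introns 35.3% and 33.3%. Repeat-masked bases made up 29.0% of the sequence at summits and 37.5% in windows. In exons the masked share was 17.1% at summits and 16.4% in windows, and in introns 36.2% and 50.3%. The settings of read mapping are unknown here, and their part in the lower masked share was not tested.

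The alternating G and A run set the stronger regions apart from windows of the territory. GAGAGAG on either strand, the motif of the sequences printed for mdt-26 to uba-1, was within 100 bp of the summit in 112 gene body regions (8.60%), against 2.34% of windows and 3.45% of weaker candidates. In exons the share was 5.87% of regions and 1.99% of windows, and in introns 10.3% and 2.55%. It was highest in first introns, at 13.9% of regions and 3.61% of windows. Regions on the optimal list had it in 14 of 80 cases (17.5%), ranks 2501 to 5000 in 7.20%, and ranks 20001 to 30000 in 2.74%. In 65 of the 112 the nearest match was within 50 bp of the summit.

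Gene body regions with GAGAGAG had a median GC content of 45.3%, against 37.8% for those without. Their signal was also higher, with a median of 25.1 against 24.0 and 12.5% on the optimal list against 5.55%. Of the 112, 90 (80.4%) overlapped a candidate in both replicates, against 67.1% of those without, and 30 (26.8%) lay near a transcript start inside the gene, against 15.8%. Overlap in both replicates itself went with signal, at 96.3% of gene body regions on the optimal list and 58.4% of those ranked 2501 to 5000, and these differences were not tested. Other strong regions had the run as well: 14.8% of those outside protein-coding genes, 6.94% at 5′ ends and 4.45% at 3′ ends. Repeat-masked bases averaged 21.9% around the summits of regions with the run and 29.6% around those without; the part of read mapping in these shares was not tested.

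**Figure D5:**
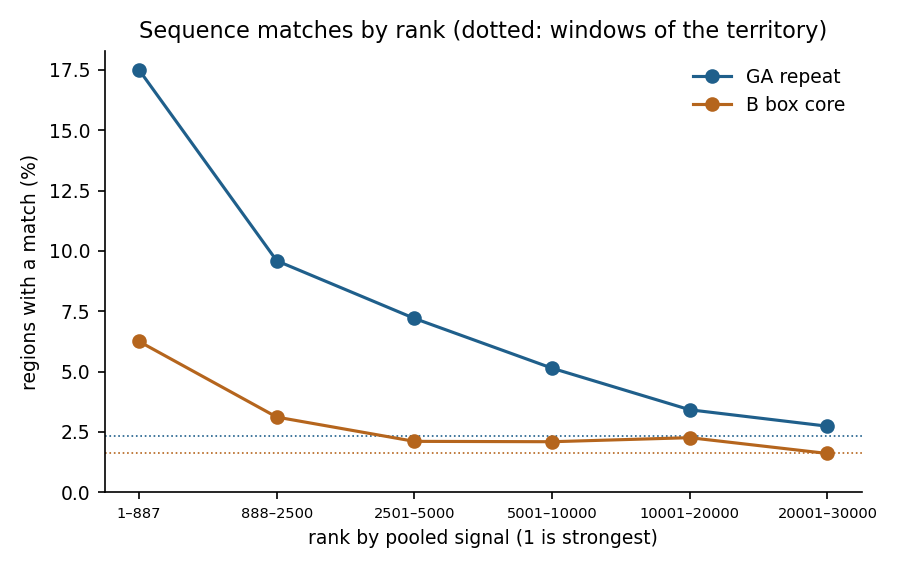
Share of regions in gene bodies (y axis, %) with, within 100 bp of the summit, the GA repeat GAGAGAG or the B box core GTTCGANNC, by rank of pooled signal (x axis, from strongest to weakest); dotted lines give the share in windows of the territory. The GA repeat stands at 17.5% in the strongest class and 2.74% in the weakest.

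The other 5 motifs stood closer to the windows. The B box core was in 35 regions (2.69%), against 1.62% of windows, and in 5 of the 80 on the optimal list (6.25%). The E box CACGTG was in 4.99% of regions and 3.78% of windows. TATAAA was in 16.7% of regions and 18.4% of windows, and AATAAA, the letters of the polyadenylation signal, in 32.2% and 32.6%. A run of T, TTTTTTTT, was in 21.2% of regions and 23.5% of windows. Among the other strong regions AATAAA was in 50.9% of those near protein-coding 3′ ends only and in 47.5% of those at 5′ ends.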

How the data were processed

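AMA-1 ChIP-seq was described from 4 deposited ce11 peak lists: the candidates of each of 2 replicates (28020 and 30000 regions), those of the pooled replicates (30000), and the optimal list (887). Calling was therefore done on each replicate and on the pooled data, per the file names. Neither caller, aligner, settings nor use of a control is stated in the sources used here. The signal of column 7 is the authors' own value per region, and served for ranks and descriptions inside a list only. The deposited −log10 q-value of column 9 reached its ceiling of 3.90 in 965 gene body regions and did not rank them. No read counts are held, so depth is unknown.

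Genes came from Ensembl release 115 and sequence from RefSeq WBcel235. A summit was exonic if in an exon of any protein-coding transcript. Introns were numbered in the representative transcript (longest coding sequence). Where that transcript had no intron at the summit, the longest transcript with an intron there was used. Of the regions, 24 lay in more than 1 protein-coding gene and were assigned to the gene whose exon held the summit, otherwise the shortest. Shares have exact Clopper-Pearson 95% intervals over regions, and density intervals scale them to territory. Motifs were searched on both strands of 201 bp windows: the GA repeat GAGAGAG, the B box core GTTCGANNC, the TATA box letters TATAAA, the polyadenylation signal AATAAA, the T run TTTTTTTT and the E box CACGTG; matches to different motifs may overlap. Sequences from chromosome I are not printed. The code was tested on simulated positions, and all 1200 placed in the territory were read back as placed.

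The members, gene lists, motifs and rules were chosen with earlier results of these data known. Named genes were those of the 10 strongest exonic and intronic regions, and of the 3 strongest first- and later-intron regions found in the 5000 strongest of both replicates. Also named were 5 genes with most regions (of 4 tied at 8, the 2 with the strongest region) and up to 3 regions per gene list. The 3 regions on either side of the threshold were named too. Genes with printed sequences were those of the strongest regions with the motif outside chromosome I. Alternatives included other rank limits, distances, transcript models and each replicate alone. The work used scipy 1.17.1, pandas 2.3.3 and numpy 2.4.6 under Python 3.11.15, with figures by matplotlib 3.10.9.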

Additional observations from a re-analysis of the deposited data

How the results depend on the processing

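A value was taken as moved when it left the 95% interval of the value given above, under 15 alternatives for the exonic share, 14 for its ratio to territory, and 13 each for the first-intron share and gene length. The exonic share (37.9%) was 27.5% with only as many pooled regions as the optimal list holds, 41.8% with ends at over 250 bp, 31.7% at over 1000 bp, 34.6% with exons of the representative transcript and 31.0% with coding exons only; the ratio (1.00) was 0.73 at that size and 0.87 with coding exons, and stayed within its interval at either distance. The first-intron share (23.1%) was 34.5% at that size, 20.0% with all candidates and 39.9% with the first intron of any transcript, where the territory share was 27.9%. Median gene length (5375 bp) was 6663 bp at that size, 4240 bp with all candidates, 4632 bp with ends at over 250 bp, 7685 bp at over 1000 bp and 7258 bp with each region counted. The distances change which genes can hold a region; otherwise the cause was not tested. Taking 1 replicate alone gave exonic shares of 40.9 to 42.2%, ratios of 1.08 to 1.12, first-intron shares of 23.0 to 26.7% and median lengths of 5585 to 5612 bp. The first-intron share exceeded its territory share in all 13 alternatives. No paired analysis was possible because there is only 1 group. Depth is unknown, and single regions often rest on 1 replicate.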

Other observations

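Gene body regions were denser in the middle of each autosome than toward its ends, with each chromosome cut into 3 equal lengths. The values were 56.0 regions per Mb of territory in the middle length and 23.2 in the outer lengths on chromosome I, 54.7 and 33.3 on II, 60.8 and 34.8 on III, 41.6 and 32.7 on IV, and 37.6 and 25.9 on V. Whole-chromosome density was highest on III, at 42.5 per Mb, and lowest on V, at 29.8 per Mb. The exonic share ranged from 35.0% on I to 40.3% on III.

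Within 250 bp of annotated ncRNA genes lay 78 gene body regions (5.99%), against 2.73% of the territory. For piRNA genes the values were 16 regions (1.23%) and 3.23%, and for miRNA genes 5 regions (0.38%) and 0.091%. Regions within 250 bp of any noncoding gene had a median signal of 26.3, against 24.1 for all gene body regions.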
